A study of Homo sapiens with 24 samples.

Results

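The short-labelled siRNA series is a course of mRNA loss in 6 libraries of cytoplasmic RNA, out of 24 in the study. The cells were U2OS, a human osteosarcoma line, transfected by lipid reagent with an siRNA whose label names the short isoform of PAN3 only. The 6 libraries were the columns of that siRNA in the deposited table, at 0, 0.5, 1, 2, 4 and 6 h of actinomycin D. The 3 late libraries (2, 4 and 6 h) were set against the 3 early ones (0, 0.5 and 1 h). The other 18 libraries came from a long-labelled siRNA, from both PAN3 siRNAs together and from a control siRNA, at the same 6 times with 1 library each. All libraries therefore carried an siRNA and, but for those of 0 h, had been in actinomycin D. No time was repeated within a series, and nothing in the labels says that the 6 libraries came from separate transfections. For late minus early, the p-values over all genes therefore measure the spread between times within the phases, pooled over the 4 series. That spread includes real change within a phase. In the tests between series, time is a term. Their p-values measure what is left once the course shared by the 4 series and each series' own level and phase difference are removed.

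Actinomycin D intercalates into DNA and stops RNA polymerases, so that mRNA already made is lost without being replaced. For most mRNAs loss begins with shortening of the poly(A) tail. The PAN2-PAN3 complex trims long tails, the CCR4-NOT complex removes the rest, and the mRNA is then decapped and degraded from its 5′ end or taken apart by the exosome from its 3′ end. PAN3 is the adaptor that recruits PAN2, the nuclease, and binds the poly(A)-binding protein. Transcripts of growth-factor responses and transcription factors are known for short lives, and transcripts of metabolic enzymes and ribosomal proteins for long ones.

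Levels are in FPKM, fragments scaled to transcript length and to the mapped reads of a library, summed over the transcripts of a gene. FPKM are relative to the rest of a library, and differences are given as log2(FPKM + 0.1) after the median of the 7860 tested genes had been subtracted from each library. Folds are taken from these differences, percentages of the 0 h level are on the same centred scale, and a rise or fall at every step is counted on it over all genes but read from the FPKM where they are given. A negative late minus early difference marks an RNA whose level fell relative to the library median. A positive difference marks one lost more slowly than that or one whose level rose, and these cannot be told apart. The median difference over all genes was 0.14, so a small positive value can lie below it. Below, relative to the median gene means relative to the library median. In whole-culture RNA, fewer cells with a transcript and less of it per cell cannot be told apart either. A gene is called when the adjusted p of limma (Benjamini-Hochberg over all 7860 genes) is under 0.05.

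The 6 libraries held summed FPKM of 327821.5 to 376163.2 and 8996 to 9505 genes at 1 FPKM or more. Read totals are not known. The median log2 value of the tested genes was 3.60, 3.60, 3.55, 3.49, 3.43 and 3.33 from the first time to the last. The first principal component of the 6 libraries held 58.3% of the variance and placed them in the order of their times. Of 12 markers of osteosarcoma and mesenchymal cells, 9 reached 1 FPKM in at least 1 library, with VIM at 680 to 956 FPKM and S100A4 at 910 to 1499 FPKM. Others were low or uneven, with COL1A1 at 0 to 217.2, TPM1 at 0 to 7.87, RUNX2 at 0.77 to 1.93 and SPARC at 0 to 1.11 FPKM. COL1A2 was at most 0.02 FPKM, and TWIST1 and ALPL were listed at 0. The summed level of the 12 was 2237 to 2803 FPKM in the late libraries and 1834 to 2005 FPKM in the early ones. The 10 blood markers summed to 48.5 to 57.5 FPKM late and 37.4 to 43.6 FPKM early, nearly all of it CD68 and HBA1, with HBB at 0 and PTPRC at 0.02 FPKM or less. The epithelial list summed to 1.61 to 1.98 FPKM late and 4.03 to 6.54 FPKM early, mostly ELF3, with EPCAM and CDH1 near 0. The 6 endothelial markers summed to 0.356 to 2.50 FPKM late and 0.208 to 2.32 FPKM early, the 6 neuronal ones to 6.43 to 9.60 FPKM late and 7.52 to 9.85 FPKM early (mostly SNAP25), and the 6 hepatocyte ones to at most 0.058 FPKM.

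In the short-labelled libraries PAN3 itself measured 1.76, 1.84, 1.76, 2.97, 4.01 and 2.72 FPKM over the 6 times in order. All 3 late values lay above all 3 early ones, at 3.23 ± 0.682 FPKM late and 1.79 ± 0.0442 FPKM early (SD, n = 3 each; exact two-sided permutation p = 0.1, the smallest that 3 against 3 can give). In the control libraries it stood at 1.16, 1.33, 0.64, 0.40, 2.40 and 0 FPKM at the same times, so the listed values were not lower in the libraries labelled as its knockdown. These values are low, with 1 library per time and unknown depth, and the 0 beside 2.40 FPKM can be a failed estimate. Whether PAN3 was knocked down cannot be judged from them. The table holds 1 transcript of PAN3, which does not separate the isoforms, and the libraries are called short-labelled for that reason. PAN2, its catalytic partner, was listed at 0 at 5 of the 6 times and at 6.12 FPKM at 0.5 h. In the control libraries it stood at 8.50 to 11.9 FPKM. A 0 next in time to such a value can be a failed estimate, and PAN2 was not among the tested genes. These zeros therefore do not show that PAN2 was absent.

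Over the course in actinomycin D the falls formed a long tail and the rises a compact bulk. Of the 7860 genes, 881 were called lower late (11.2%) and 1351 higher late (17.2%), together 2232 (28.4%). The falls were larger: 477 genes were called lower by at least 1 log2 unit and 83 by at least 2, while 90 were called higher by at least 1 and 10 by at least 2. The median difference was 0.14, and 80% of the genes lay between -0.80 and 0.59. The 3 late values lay below all 3 early ones in 1456 genes (18.5%) and above them in 2556 (32.5%), together 4012 genes (51.0%). A fall at every one of the 5 steps in time was seen in 313 of the 881 genes called lower, and a rise at every step in 576 of the 1351 called higher. Over all 7860 tested genes, 403 fell and 887 rose at every step.

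The counts rest on a spread estimated over all 24 libraries: with only the 6 short-labelled libraries in the fit 33 genes were called, 22 lower and 11 higher (3188 at an unadjusted p under 0.05). The split between the directions rests on the scaling, and the counts also on the ends of the course. Without subtraction of library medians, which lay 0.168 log2 units lower in the late libraries, 1155 genes were called lower and 649 higher. With quantile normalisation 779 were lower and 824 higher. The total of 2232 was 304 without the short-labelled library of 6 h, 415 without that of 0 h, 785 without that of 0.5 h and 959 without that of 4 h. It was 2281 without the library of 1 h and 2697 without that of 2 h. Over the 24 gene lists described below, 266 of 756 entries were called, and 48, 92, 273, 284, 100 and 36 without the library of 0, 0.5, 1, 2, 4 and 6 h. With only the 6 libraries in the fit 4 of the 756 were called. The smaller counts are given beside most lists for the library of 6 h.

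**Figure D1:**
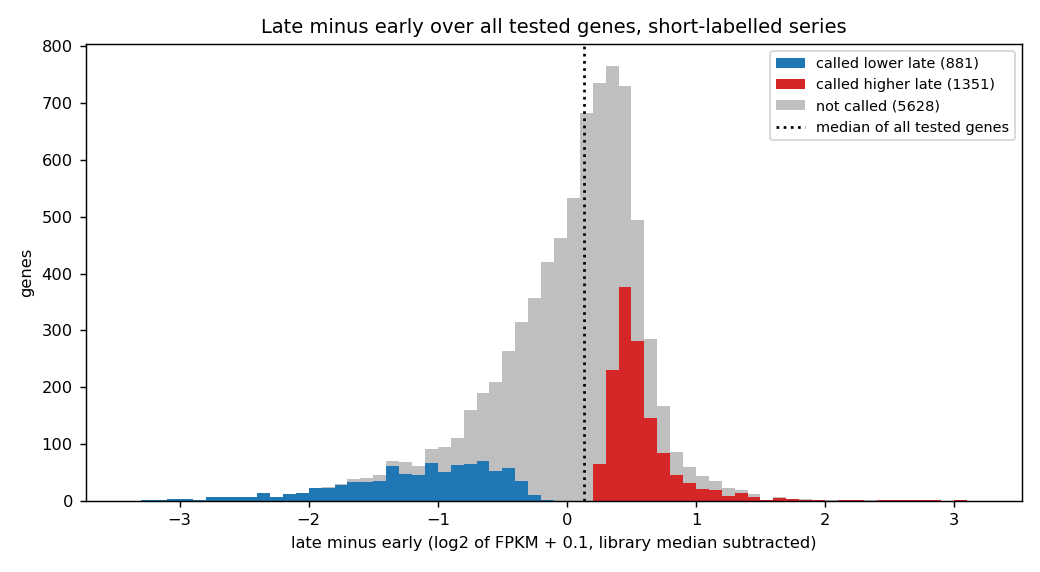
Late minus early difference (x axis, log2 of FPKM + 0.1 after subtraction of the library median) of the 7860 tested genes in the short-labelled series, with the number of genes on the y axis. The 881 genes called lower reach far to the left, past -3, while most of the 1351 called higher sit between 0.2 and 1.

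Most of the largest falls among genes with a mean of 5 FPKM or more were those of regulators. The 12 lowest differences, at -3.26 to -2.76, included those of ZNF787, CYR61, SERTAD1, CITED2, HMOX1, ZFP36L2, KLF10, RHOB, CCDC71, BHLHE40 and CTCF; they correspond to levels 6.77-fold to 9.56-fold lower late. Of the 12, 7 are on the list of immediate-early regulators described below, and 7 fell at every step. CYR61, a secreted matrix-associated signalling protein, measured 258, 118.8, 75.3, 23.2, 10.3 and 8.93 FPKM from 0 to 6 h. It averaged 14.1 ± 7.88 FPKM late and 151 ± 95.4 early (SD, n = 3 each), a difference of -3.18 ± 0.58 (SE; limma adjusted p = 0.00312). Relative to the median gene, 30.3% of the 0 h level was left after 1 h. Late and early values do not overlap in any of the 12, because the naming rule required it.

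CITED2, a coregulator that binds the acetyltransferases CBP and p300, followed the same shape with 98.2, 63.9, 35.9, 13.3, 5.18 and 3.72 FPKM from 0 to 6 h. RHOB, a small GTPase, stood at 155.6, 90.4, 52.0, 20.3, 9.87 and 7.28 FPKM. BHLHE40, a basic helix-loop-helix repressor, stood at 78.5, 50.7, 25.9, 8.88, 5.06 and 4.74 FPKM. All 3 fell in FPKM at every step and changed least between 4 and 6 h. The differences were -3.07 ± 0.54 for CITED2, -2.81 ± 0.51 for RHOB and -2.78 ± 0.47 for BHLHE40 (SE; limma adjusted p = 0.00288, 0.00317 and 0.00256).

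HMOX1, which encodes the inducible haem oxygenase, stood at 12.9, 10.4, 6.01, 2.64, 0.68 and 0.51 FPKM from 0 to 6 h. CTCF, the insulator-binding protein, stood at 14.0, 10.9, 7.18, 2.89, 1.56 and 0.41 FPKM. KLF10, a repressor induced by TGF-beta, stood at 22.6, 15.1, 8.66, 3.04, 1.21 and 1.27 FPKM. HMOX1 and CTCF fell at every step, while KLF10 fell up to 4 h and was slightly higher at 6 h. The 6 h value relative to the median gene was 5.72% of the start in HMOX1, 4.41% in CTCF and 7.32% in KLF10. A transcript of KLF10 was listed at 0 between values of 1 FPKM or more. ZNF787, a zinc-finger protein, was less even, with 19.2, 17.1, 14.0, 0.79, 5.28 and 0.69 FPKM, so that its 4 h value stood above its neighbours. Without the library of 0 h or of 6 h, ZNF787 (-3.16 and -2.81) and CCDC71 (-2.62 and -2.08) lost their calls, while the other 10 of the 12 kept theirs. Without any one of the other libraries all 12 were still called. With only the 6 short-labelled libraries in the fit none of the 12 was called (limma adjusted p = 0.0580 to 0.0654).

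SERTAD1, a coregulator of E2F-dependent transcription, and ZFP36L2, a zinc-finger protein that binds AU-rich elements and promotes decay, completed the group. SERTAD1 stood at 29.3, 24.4, 16.7, 5.70, 1.83 and 1.00 FPKM and ZFP36L2 at 19.4, 11.9, 7.44, 4.13, 0.54 and 0.93 FPKM. At 4 h SERTAD1 was at 7.41% and ZFP36L2 at 3.69% of the start relative to the median gene. AU-rich elements are sites in 3′ UTRs, often built on the letters TATTTAT, at which ZFP36 family proteins bind and recruit deadenylases. Of the 12 genes with the largest falls, 3 held TATTTAT on the transcript strand of the annotated 3′ UTR of their most abundant RefSeq transcript. Over all 7458 tested genes with an annotated 3′ UTR, 2329 held it (31.2%), so these 12 did not hold it more often. One site of each of the 3 is shown with 10 bases on either side and the motif in capitals. The sites run 5′ to 3′ along the transcript, from GENCODE 29 on build GRCh38.
CYR61 (chr1:85583560-85583586, plus strand, 3′ UTR of 920 bases, 2 matches): ctgaatgtttTATTTATcaaaatgtag
SERTAD1 (chr19:40421751-40421777, minus strand, 3′ UTR of 1244 bases, 1 match): agtctacctgTATTTATtgaggagcga
ZFP36L2 (chr2:43223449-43223475, minus strand, 3′ UTR of 1917 bases, 3 matches): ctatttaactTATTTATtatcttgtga
The motif was searched as these 7 letters on the transcript strand only, and overlapping matches were counted.

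Both the share of genes with the motif and the length of the 3′ UTR differed between the called groups. TATTTAT was found in 37.1% of the 852 genes called lower that had an annotated 3′ UTR, in 20.6% of the 1291 called higher, in 32.9% of the 5315 not called and in 31.2% of all 7458. The median 3′ UTR was 1286.5 bases in genes called lower, 543 bases in genes called higher and 991.5 bases in all. Among 3′ UTRs of 1000 to 2000 bases the motif stood in 35.3% of genes called lower, 27.4% of those called higher, 35.3% of those not called and 34.2% of all. Within that band, genes called lower thus held it no more often than genes not called. Of the 81 genes with a 3′ UTR that were called lower by at least 2 log2 units, 34.6% held it, with a median 3′ UTR of 1016 bases. Among their 30 3′ UTRs of 1000 to 2000 bases 12 held it (40.0%, against 34.2% of all). They had 0.453 matches per 1000 bases of 3′ UTR, against 0.323 in all tested genes. These differences were not tested. These shares are descriptions of annotation, and the files do not say which 3′ UTR U2OS cells use.

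**Figure D2:**
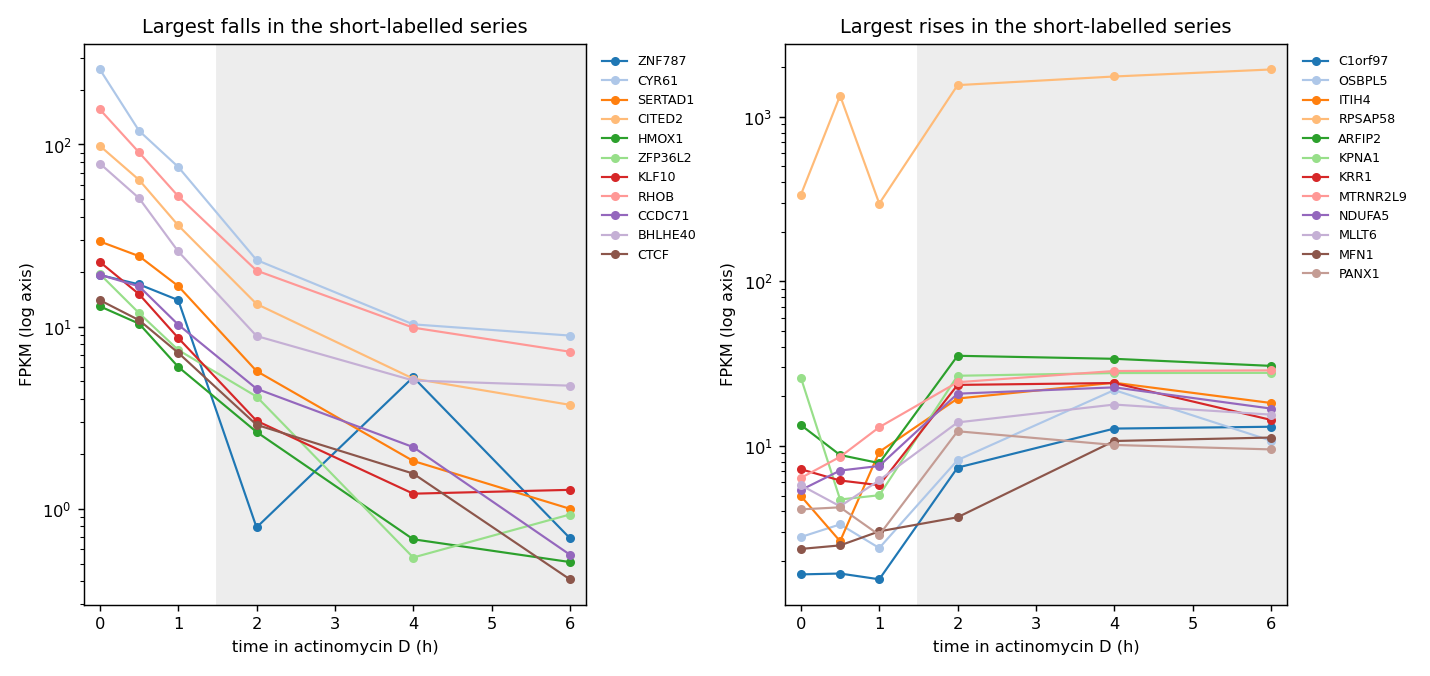
Level in FPKM (y axis, log scale) against time in actinomycin D in hours (x axis) in the short-labelled series, 1 library per point, for 11 of the 12 largest falls (left) and the 12 largest rises (right); grey marks the late libraries. The drawn falls end below 10 FPKM at 6 h, CYR61 highest of them at 8.93 FPKM, with uneven ends in ZNF787, ZFP36L2 and KLF10. Most rises step up between 1 and 2 h, the boundary between early and late libraries by which the genes were chosen.

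Immediate-early regulators, a list of 66 growth-factor and stress-induced genes such as AP-1, KLF, ID, DUSP and NR4A members, had the lowest median of the 24 lists described. Of 53 that could be tested, 38 fell (71.7%, against 11.2% of all tested genes), 1 rose and 14 did not pass. The list had a median difference of -1.59 against 0.14 over all tested genes. Their summed share of FPKM was 0.995%, 0.611%, 0.433%, 0.254%, 0.190% and 0.174% from the first time to the last. ID3, an inhibitor of basic helix-loop-helix factors, had the smallest p of the list and stood at 141.6, 147.2, 103.6, 54.3, 37.9 and 32.5 FPKM. ID3 held its level for the first 0.5 h, unlike CYR61, and then fell at every step, to 41.5 ± 11.3 FPKM late against 131 ± 23.7 early (SD, n = 3 each), a difference of -1.501 ± 0.20 (SE; limma adjusted p = 0.000463). The member that rose was PLAUR, the urokinase receptor, by 0.62 ± 0.19, named after its value had been seen. The 38 were 15 when the library of 6 h was left out, 14 without that of 0 h, 22 without that of 0.5 h and 21 without that of 4 h, and the list median stayed between -1.98 and -1.25 whichever library was left out.

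Zinc-finger genes of the ZNF series, most of them transcription factors, fell as a smaller share. Of 102 tested, 20 fell (19.6%, against 11.2% of all tested genes), 3 rose and 79 did not pass, with a median of -0.34. ZNF408 stood at 9.12, 5.77, 2.05, 0.96, 0.75 and 0.72 FPKM and ZNF410 at 17.5, 15.99, 14.4, 10.9, 5.98 and 3.48 FPKM from 0 to 6 h. ZNF408 had lost most of its level by 1 h. Relative to the median gene, ZNF410 was still at 67.5% of the start at 2 h and at 24.6% at 6 h. ZNF274 and ZNF672 were 2.48-fold and 2.55-fold lower late. Leaving out the library of 6 h left 2 ZNF genes called lower, against 3 without that of 0 h, 7 without that of 0.5 h and 5 without that of 4 h.

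Genes of the decay machinery itself were called about as often as other genes: 19 of 68 on the 4 lists (27.9%), against 28.4% of all tested genes. Of 14 tested deadenylase and poly(A)-binding genes 3 fell, 1 rose and 10 did not pass, with a median of -0.20. TOB1, an adaptor that recruits CCR4-NOT to mRNA, stood at 11.4, 7.03, 4.23, 1.02, 2.23 and 2.16 FPKM. BTG2, a relative of TOB1, stood at 19.0, 9.17, 5.14, 3.60, 3.11 and 3.21 FPKM. CNOT1, the scaffold of CCR4-NOT, held 30.2, 28.96 and 27.3 FPKM early and 19.5, 15.0 and 10.3 FPKM at the late times. TOB1 and BTG2 lost most of their level by 2 h. Relative to the median gene, TOB1 stood at 10.5% of the start at 2 h and was higher again at 4 and 6 h (22.8% and 23.8%). BTG2 stayed between 18.9% and 21.0% from 2 h on. CNOT1 fell mainly after 1 h, to 14.9 ± 4.60 FPKM late against 28.8 ± 1.45 early (SD, n = 3 each; limma adjusted p = 0.00802). PAIP2, an inhibitor of the poly(A)-binding protein, rose to 63.1 ± 6.18 FPKM late against 51.9 ± 2.90 early. None of the 14 was called when the library of 6 h was left out.

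Of 11 tested genes of AU-rich element binding proteins, ZFP36L2, RBM38 and PCBP1 fell, CELF1 rose and 7 did not pass (median -0.29). PCBP1, a poly(C)-binding protein, stood at 228.4, 202.6, 196.1, 169.6, 138.7 and 111.8 FPKM, a slow fall at every step. CELF1 stood at 11.3, 17.8, 15.7, 35.8, 21.1 and 36.8 FPKM, with a transcript listed at 0 between higher values. Of 36 decapping, exosome and nonsense-mediated decay genes 3 fell, 6 rose and 27 did not pass, with a median of 0.01 (-0.16 without library medians subtracted). SMG8, a regulator of the kinase SMG1, was 2.88-fold lower late, and UPF3A, a nonsense-mediated decay factor, was 2.67-fold higher late with 11.5 to 13.1 FPKM late and 3.85 to 7.81 FPKM early. LSM3 (1.40-fold) and WDR61 (1.43-fold) rose more gently. Of 7 microRNA machinery genes EIF2C2, which encodes Argonaute 2, fell to 2.97 ± 0.694 FPKM late against 9.71 ± 2.09 early (SD, n = 3 each), PRKRA rose and 5 did not pass. When the 6 h library was left out, 1 of the 11 was still called lower, and 1 of the 36 lower and none higher.

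The 12 highest differences belonged to C1orf97, OSBPL5, ITIH4, RPSAP58, ARFIP2, KPNA1, KRR1, MTRNR2L9, NDUFA5, MLLT6, MFN1 and PANX1, at 2.82 to 1.66, or 7.04-fold to 3.17-fold higher late. These were less even courses than the falls: 2 of the 12 rose at every step, and 3 of the 12 (OSBPL5, ITIH4 and ARFIP2) had a transcript listed at 0 between values of 1 FPKM or more. C1orf97 measured 1.66, 1.68, 1.55, 7.39, 12.8 and 13.1 FPKM from 0 to 6 h. The early values lay close together (SD 0.0719) and the step came between 1 and 2 h (late minus early 2.82 ± 0.46, SE; limma adjusted p = 0.00223). In the control libraries C1orf97 held 23.99 to 30.7 FPKM at every time, so all 6 short-labelled values lay below the control range.

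NDUFA5, a subunit of respiratory complex I, stood at 5.40, 7.09, 7.56, 20.8, 22.7 and 16.9 FPKM. MLLT6, a chromatin reader known as an MLL fusion partner, stood at 5.77, 4.30, 6.19, 13.9, 17.8 and 15.5 FPKM. Both stepped up between 1 and 2 h, which is the boundary between early and late libraries by which these 12 were chosen. NDUFA5 differed by 1.75 ± 0.30 and MLLT6 by 1.70 ± 0.25 (SE; limma adjusted p = 0.00256 and 0.000847). C1orf97, NDUFA5 and MLLT6 were the members of these 12 whose call held under every alternative run.

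KPNA1, an importin alpha, measured 25.9, 4.73 and 5.02 FPKM at the early times and 26.7, 27.7 and 27.8 FPKM at the late ones. Its difference thus rests on 2 lower early libraries. In the control libraries KPNA1 stood at 6.21, 2.93, 3.08, 3.33, 10.8 and 2.66 FPKM. The 0.5 and 1 h values lay within that range and the other short-labelled values above it. RPSAP58, a processed copy of the ribosomal protein gene RPSA, stood at 335.7, 1341.1, 296.4, 1552.3, 1751.5 and 1932.2 FPKM, and its 0.5 h value lay near the late ones. Reads of RPSAP58 and RPSA are hard to separate, and the same holds for MTRNR2L9, a nuclear copy of mitochondrial ribosomal RNA, which rose at every step (6.40, 8.59, 13.0, 24.4, 28.5 and 28.8 FPKM). MFN1, a mitochondrial fusion GTPase, stood at 2.37, 2.49, 3.03, 3.69, 10.7 and 11.3 FPKM and rose mainly between 2 and 4 h. KRR1, a ribosome assembly factor, and PANX1, a membrane channel, stepped up at 2 h, to 20.7 ± 5.43 FPKM late against 6.39 ± 0.742 early and to 10.6 ± 1.45 late against 3.74 ± 0.75 early (SD, n = 3 each). Of the 12, 5 were still called without the library of 6 h and 7 each without those of 0 h or 4 h. The count was 8 without that of 0.5 h, 9 without that of 1 h and 11 without that of 2 h. Their sign held each time, because the naming rule required it. Of the genes called higher by at least 1 log2 unit 21.1% had a transcript listed at 0 between higher values in the short-labelled series, against 12.8% of those called lower by at least 1 and 14.3% of all tested genes.

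Many transcripts of energy metabolism and of the ribosome gained relative level in small steps. Of 69 tested genes of nuclear-encoded oxidative phosphorylation 37 rose (53.6%, against 17.2% of all tested genes), none fell and 32 did not pass. The list had a median of 0.45, and its share of FPKM was 3.28% at 0 h and 4.01% at 6 h. ATP5H, a subunit of ATP synthase, stood at 197.0, 195.5, 212.5, 266.1, 256.1 and 283.4 FPKM. NDUFS7, of complex I, stood at 112.8, 111.4, 127.6, 148.0, 154.3 and 163.3 FPKM, and NDUFAB1, its acyl carrier protein, at 132.1, 130.1, 137.3, 146.3, 164.6 and 199.2 FPKM. These were rises of 1.5-fold, 1.49-fold and 1.42-fold, with every late value above every early one. The calls needed both ends of the course: 1 of the 69 was called higher without the library of 0 h, 0.5 h or 6 h and 9 without that of 4 h, while the list median stayed between 0.34 and 0.56 whichever was left out. Without subtraction of library medians 20 of the 69 were called higher (median 0.28), and with quantile normalisation 9 were higher and 1 lower (median 0.12).

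Of 64 cytoplasmic ribosomal protein genes 25 rose (39.1%, against 17.2% of all tested genes), 1 fell and 38 did not pass, with a median of 0.40. RPL7A stood at 112.8, 117.6, 126.2, 144.3, 147.9 and 150.6 FPKM, RPS29 at 987.8, 1155.9, 1227.3, 1359.7, 1574.4 and 1987.5 FPKM, and RPL38 at 1274.1, 1180.5, 1058.5, 1942.9, 1993.7 and 1682.0 FPKM. RPL7A and RPS29 rose at every step, and RPL38 stepped up at 2 h. Ribosomal protein genes have many processed copies in the genome, so these levels may hold reads of copies. The direction of this list rests on the scaling: its median was 0.40 with library medians subtracted, 0.23 without and -0.03 with quantile normalisation, under which 1 member was higher and 3 were lower. Of the 64, 2 were called higher without the library of 6 h, 3 without that of 0 h, 4 without that of 0.5 h and 7 without that of 4 h. Mitochondrial ribosomal protein genes were mixed, with 11 of 69 higher (15.9%, against 17.2% of all tested genes) and 5 lower (7.25%, against 11.2%). Their median was 0.18, and -0.04 with quantile normalisation. MRPS28 was 1.85-fold higher late, at 82.5 to 101.5 FPKM against 55.7 to 58.4 early, and MRPS2 was 1.49-fold lower late. Without the library of 6 h, 1 of the 69 was called.

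Genes of the endoplasmic reticulum chaperones and the unfolded protein response rose in 13 of 24 cases, fell in 2 and did not pass in 9. That is 54.2% higher, against 17.2% of all tested genes, and the list median was 0.43. HSP90B1, the chaperone of the lumen, stood at 445.5, 525.5, 551.7, 652.1, 693.5 and 785.2 FPKM, and HYOU1, a nucleotide exchange factor, at 99.7, 97.8, 106.1, 131.5, 142.6 and 148.0 FPKM. HSP90B1 rose at every step (0.65 ± 0.15, SE; limma adjusted p = 0.00918), and in both the late values lay above the early ones. The 2 that fell were the transcription factor XBP1 (-1.04 ± 0.32, SE) and HERPUD1 (-0.33 ± 0.10), a protein of the degradation complex, both named after their values had been seen. Of 32 proteasome subunit genes 12 rose (37.5%), 1 fell and 19 did not pass (median 0.32). PSMA2 stood at 84.4, 73.4, 77.4, 119.5, 130.8 and 143.8 FPKM, a 1.88-fold rise, while PSMD5, an assembly chaperone of the base, stood at 19.5, 17.7, 16.7, 10.7, 9.21 and 7.39 FPKM. With the 6 h library left out, 1 chaperone gene and 1 proteasome gene were called higher. With quantile normalisation 3 chaperone genes were higher and 3 lower (median 0.07), and 2 proteasome genes were higher and 1 lower (median 0.02).

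Extracellular matrix genes rose in 6 of 21 cases (28.6%, against 17.2% of all tested genes) and fell in none (median 0.42), led by collagens. COL6A1 stood at 2.69, 3.33, 3.91, 5.29, 9.06 and 9.06 FPKM, and COL5A1 at 29.5, 58.8, 57.2, 58.6, 104.4 and 103.0 FPKM. COL6A1 was 2.56-fold and COL5A1 2.08-fold higher late, and COL5A1 shows steps at 0.5 and 4 h rather than a line. All 4 tested mesenchymal markers (CD44, S100A4, CALD1 and TGFBI) were also called higher, by 0.35 to 0.59, as was the blood marker CD68 (0.54). None of the 21 matrix genes and 1 of the 4 mesenchymal markers was called without the library of 6 h, and the same held without that of 0 h.

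Glycolytic genes rose in 5 of 13 cases (38.5%, against 17.2% of all tested genes) and fell in none. Their median was 0.07, and -0.09 without library medians subtracted and -0.08 with quantile normalisation. LDHB stood at 762.1, 791.8, 874.5, 938.0, 1019.7 and 1137.9 FPKM, a rise at every step, and PGK1 at 219.8, 144.3, 237.4, 382.1, 266.7 and 364.5 FPKM. ALDOA was 1.36-fold and PFKL 1.48-fold higher late. Aminoacyl-tRNA synthetase genes rose in 3 of 19 cases (EPRS, SARS and WARS, 1.27-fold to 1.37-fold) and fell in none. That is 15.8% higher, against 17.2% of all tested genes. None of the glycolytic genes and 1 of the synthetases was called when the 6 h library was left out.

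**Figure D3:**
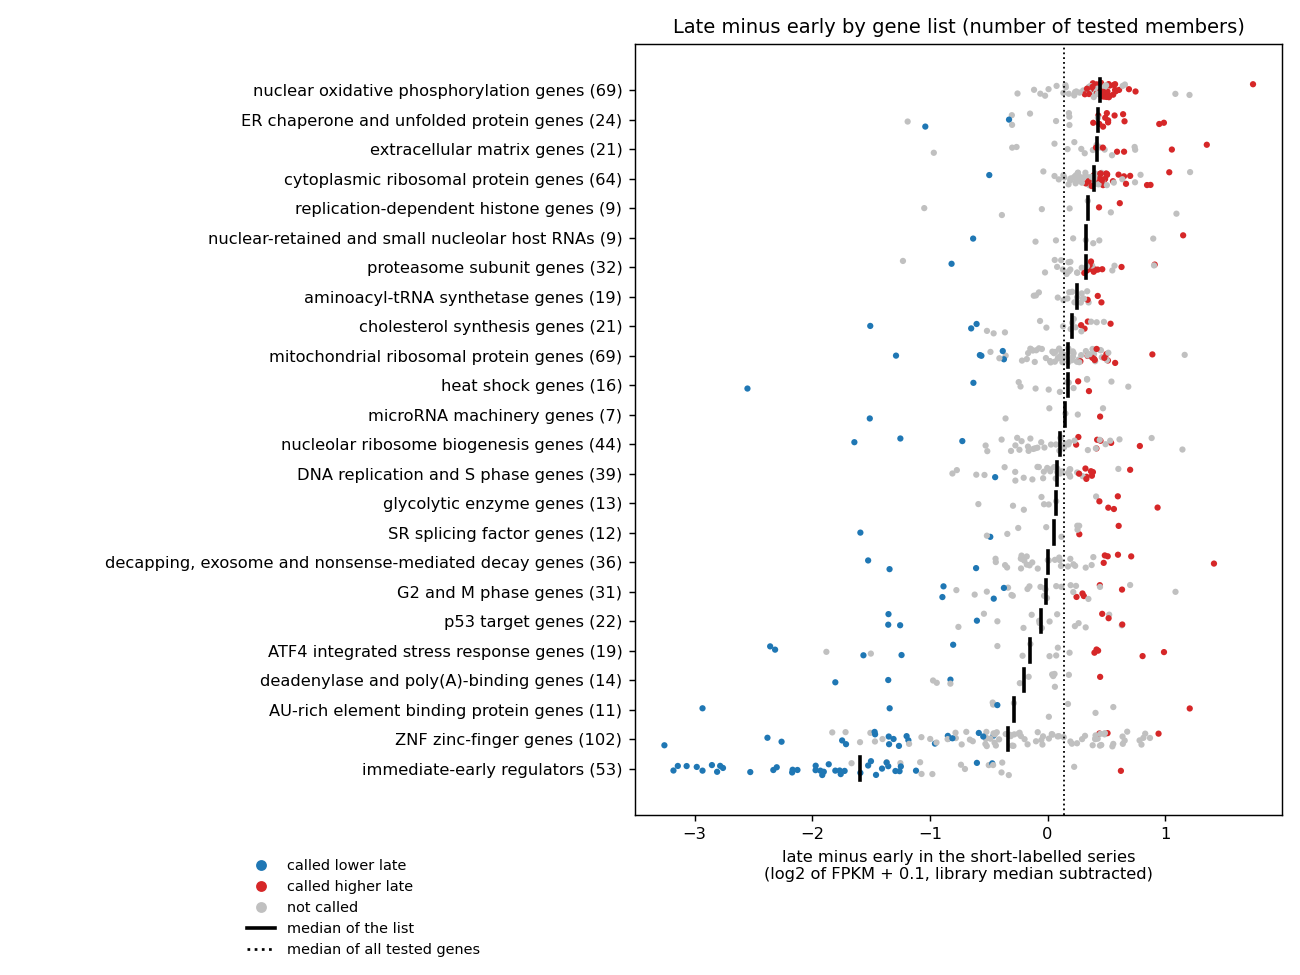
Late minus early difference (x axis, log2 of FPKM + 0.1 after subtraction of the library median) of the tested members of each gene list in the short-labelled series; each point is a gene, blue where called lower late, red where called higher and grey where not called, with the list median as a bar and the median of all tested genes (0.14) dotted. The immediate-early list lies furthest left with a median of -1.59, and oxidative phosphorylation furthest right at 0.45.

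Several lists held called members in both directions, and most of them were called about as often as all tested genes (28.4% in either direction). On the list of the ATF4 stress response 5 of 19 genes fell and 5 rose (52.6% called, median -0.15). DDIT4, an inhibitor of mTORC1 signalling, stood at 91.0, 41.9, 21.8, 10.02, 7.86 and 5.83 FPKM, and CEBPG, a leucine-zipper factor, was 1.74-fold lower late. PSAT1 and ASNS, enzymes of serine and asparagine synthesis, were 1.33-fold and 1.35-fold higher late, at 58.3 to 64.6 FPKM late against 49.5 to 53.7 early for PSAT1 and 14.2 to 14.9 late against 10.6 to 13.9 early for ASNS. Of 22 p53 target genes 4 fell and 3 rose (31.8% called, median -0.06): AEN, a nuclease, stood at 74.8, 57.7, 43.1, 25.8, 19.7 and 18.9 FPKM, and DDB2, a DNA damage sensor, at 27.3, 30.6, 32.9, 34.8, 38.1 and 38.5 FPKM. AEN fell and DDB2 rose at every step, and TNFRSF10B rose through 1 low early library (63.8 FPKM at 1 h against 120.9 to 127.2 at the other times). The 6 h library left out, no ATF4 gene was called lower and 1 higher, and 1 p53 target was called lower and none higher.

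On the cholesterol list 3 of 21 genes fell and 4 rose (33.3% called, median 0.21). MVK, mevalonate kinase, was 1.57-fold lower late, while HMGCS1 and LSS, enzymes early and late in the pathway, were 1.24-fold and 1.27-fold higher. Of 16 heat shock genes DNAJB1 and BAG3 fell and HSPH1 and HSPD1 rose. DNAJB1, a co-chaperone of HSP70, stood at 34.1, 26.2, 16.9, 8.22, 3.50 and 1.69 FPKM, a fall to 4.47 ± 3.37 FPKM late against 25.7 ± 8.63 early (SD, n = 3 each; limma adjusted p = 0.00223). In each of these lists 1 gene was called without the 6 h library, in each case lower.

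Cell-cycle genes were called about as often as other genes: 9 of 31 on the G2 and M phase list and 9 of 39 on the replication and S phase list (23.1%), against 28.4% of all tested genes. Of 31 G2 and M phase genes 4 fell and 5 rose, with CENPA, the centromeric histone, at 6.04, 4.45, 2.79, 2.31, 1.59 and 2.13 FPKM and PRC1, a spindle midzone protein, at 48.5, 48.7, 51.9, 53.3, 56.8 and 54.2 FPKM. Of 39 DNA replication and S phase genes 8 rose and 1 fell, CCNE2 (-0.45 ± 0.15, SE), named after its value had been seen. POLD1, the catalytic subunit of DNA polymerase delta, stood at 19.1 to 22.3 FPKM late against 13.9 to 14.9 early, and RRM1 and TYMS were 1.26-fold and 1.29-fold higher late. Of 60 listed replication-dependent histone genes, 9 could be tested, and HIST1H2BD and HIST1H2BK rose (22.2% called). Most histone mRNAs lack a poly(A) tail and histone genes are near-copies of each other, so these values are uncertain. Of 44 nucleolar ribosome biogenesis genes 7 rose and 3 fell (22.7% called), among them WDR43 at 37.3, 35.6, 25.9, 20.1, 11.2 and 7.88 FPKM. Of 12 SR splicing factor genes SRSF2 and SRSF11 rose and SRSF9 and the kinase CLK1 fell (33.3% called). When the 6 h library was left out 1 gene was called in each of the cell-cycle lists, 1 in the nucleolar list and none in the histone and SR lists.

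Of 9 tested nuclear-retained RNAs and host genes of small nucleolar RNAs, NEAT1 rose, SNHG7 fell and 7 did not pass. That is 22.2% called, against 28.4% of all tested genes. NEAT1, the noncoding RNA that builds paraspeckles in the nucleus, measured 75.8, 117.6, 132.8, 147.9, 216.2 and 287.1 FPKM over the course. NEAT1 was higher at every step although the RNA had been extracted as cytoplasmic, and averaged 217 ± 69.6 FPKM late against 109 ± 29.5 early (SD, n = 3 each; limma adjusted p = 0.0246). In the control libraries NEAT1 stood at 125.5, 80.0, 60.7, 48.5, 84.5 and 92.3 FPKM, with no one direction over time. The test of that difference between the series did not pass (1.18 ± 0.36, SE; limma adjusted p = 0.0949). The call of NEAT1 was lost without the library of 0, 0.5, 4 or 6 h and with quantile normalisation. None of the 28 mitochondrially encoded genes had a row in the table.

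The same comparison was made within the other series. By the same test 955 genes were called lower (12.2%) and 1414 higher (18.0%) in the control series, 529 (6.73%) and 658 (8.37%) in the long-labelled series and 596 (7.58%) and 808 (10.3%) in the both-labelled series. Of the 12 largest falls of the short-labelled series 10 were called lower in the control series as well, and none differed between the 2 series by the test of that difference. CYR61, for example, stood at 469.5, 203.0, 133.8, 48.0, 26.1 and 22.2 FPKM in the control libraries from 0 to 6 h (late minus early -3.18 in the short-labelled series and -2.74 in the control series). The 12 largest rises were less shared: 3 were called higher in the control series (OSBPL5, MTRNR2L9 and MFN1), and 2, NDUFA5 and MLLT6, differed between the series. Both groups of 12 had been chosen by their values in the short-labelled series, which by itself favours smaller changes in any other series.

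The test of the difference in late minus early between the short-labelled and control series called 188 of 7860 genes (2.39%), of which 114 were lower in the short-labelled series (1.45%) and 74 higher (0.941%). That count changed with single libraries. Without 1 short-labelled library it was 33, 45, 159, 338, 46 and 28 for the library of 0, 0.5, 1, 2, 4 and 6 h, and without 1 control library 66, 69, 159, 437, 50 and 52 in the same order. Against the long-labelled series 55 genes were called (0.700%), 46 lower (0.585%) and 9 higher (0.115%) in the short-labelled series. Against the both-labelled series limma called no gene after adjustment (0 of 7860, smallest adjusted p = 0.350), with 412 at an unadjusted p under 0.05 and again 0 in the fit without time as a term.

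The genes named as lower against the control reached that difference in unlike ways. GNA12, a G protein alpha subunit, stood at 8.57, 5.36, 6.01, 3.31, 1.06 and 1.38 FPKM in the short-labelled libraries, against 10.01, 16.8, 17.5, 21.9, 24.4 and 20.9 FPKM in the control libraries. The 2 courses were close only at 0 h. They were apart at 0.5 and 1 h and further apart from 2 h on (short-labelled minus control -2.55 ± 0.51, SE; limma adjusted p = 0.0223). SHOC2, a scaffold of RAS-RAF signalling, stood at 12.4, 13.1, 7.77, 3.32, 5.06 and 1.62 FPKM against 10.2, 5.13, 2.65, 6.97, 5.99 and 4.75 FPKM in the control libraries (-2.01 ± 0.47). In the control series SHOC2 was at its lowest at 1 h.

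SDC3, a heparan sulphate proteoglycan, was the lowest of the genes named against the control (-3.71 ± 0.49, SE; limma adjusted p = 0.0106), and the called change was in the control series (3.03). It stood at 6.55, 6.33, 4.93, 4.17, 3.77 and 2.16 FPKM in the short-labelled libraries, against 1.34, 2.31, 2.24, 14.1, 13.5 and 14.9 FPKM in the control libraries. Its own late minus early difference in the short-labelled series was -0.68 ± 0.34 and was not called. PPDPF and CDK2AP1 differed in level from the start. PPDPF stood at 4.09, 4.77, 5.78, 0.42, 2.61 and 0.50 FPKM against 78.5, 141.7, 41.6, 169.5, 180.0 and 218.1 FPKM in the control libraries, and CDK2AP1, a regulator of CDK2, at 5.84, 8.51, 6.45, 2.90, 1.38 and 1.16 FPKM against 65.0, 110.1, 87.3, 110.1, 82.3 and 81.6 FPKM. Every short-labelled value of both genes was below every control value, and both lost level late in the short-labelled series, with a difference from the control of that loss (-3.70 ± 0.90 and -2.08 ± 0.51, SE; limma adjusted p = 0.0468 and 0.0481).

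Among genes higher against the control, SESN2, a stress-induced inhibitor of mTORC1, stood at 22.6, 19.2, 16.2, 13.8, 12.2 and 12.1 FPKM, against 10.4, 6.09, 3.20, 1.62, 0.91 and 1.02 FPKM in the control libraries. SESN2 was not called within the short-labelled series (-0.43 ± 0.27) and fell by 2.06 in the control series, and the difference was 1.63 ± 0.26 (SE; limma adjusted p = 0.0109). PHLDA1, an immediate-early gene, fell in both series but less in the short-labelled one, at 25.7, 14.5, 10.4, 6.47, 5.50 and 5.56 FPKM against 30.6, 18.4, 12.2, 1.41, 3.27 and 2.85 FPKM (1.501 ± 0.36). SOX13, a transcription factor, held 11.3, 8.99, 8.30, 11.1, 9.77 and 8.45 FPKM against 18.6, 10.4, 15.3, 7.58, 3.86 and 3.77 FPKM in the control libraries (1.57 ± 0.36). NDUFA5 (2.17 ± 0.44) and MLLT6 (1.52 ± 0.31) rose in the short-labelled series from levels below the control range: NDUFA5 held 11.5 to 26.9 and MLLT6 16.8 to 20.6 FPKM in the control libraries. Of these 10 genes named by rule against the control, 2, 3, 5, 7, 3 and 2 kept their calls without the short-labelled library of 0, 0.5, 1, 2, 4 and 6 h, and 3, 5, 5, 9, 4 and 3 without the control library of those times. SDC3 and SESN2 were the 2 still called without the short-labelled library of 6 h. With only the 12 libraries of these 2 series in the fit none of the 10 was called (limma adjusted p = 0.0939 to 0.291), and without time as a block 3 of the 10 were (SDC3, GNA12 and NDUFA5).

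By list, the differences from the control were counts of 0 to 8 genes, to be read against 2.39% of all tested genes. Of the 53 immediate-early genes 1 was lower and 2 were higher than in the control series, of the 69 mitochondrial ribosomal protein genes 1 was lower and 5 higher (8.70% together), of the 102 ZNF genes 1 was lower and 7 higher (7.84%), of the 22 p53 targets 3 were higher (13.6%), of the 19 ATF4 genes 2 were lower and 1 higher (15.8%), and of the deadenylase, decapping and AU-rich element binding lists none was called. PSMD5 was lower (-0.40 ± 0.083, SE; limma adjusted p = 0.0259) and WDR43 higher (0.58 ± 0.092; adjusted p = 0.0109) than in the control series. WDR43 fell in each series, and PSMD5 had -0.82 in the short-labelled and -0.42 in the control series, of which the first was called. Against the long-labelled series KLF10 (-1.98), HMOX1 (-1.92), RHOB (-0.79) and BHLHE40 (-0.86) were lower in the short-labelled series among the 12 largest falls (limma adjusted p = 0.00121, 0.0280, 0.0280 and 0.0168), and so was CDK2AP1 (-2.52; adjusted p = 0.0391), while MLLT6 was higher (1.51; adjusted p = 0.0391). The 12 largest falls had been chosen by their values in the short-labelled series, which by itself favours a larger fall there than in another series. The comparisons with the control, long-labelled and both-labelled series share the short-labelled libraries.

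**Figure D4:**
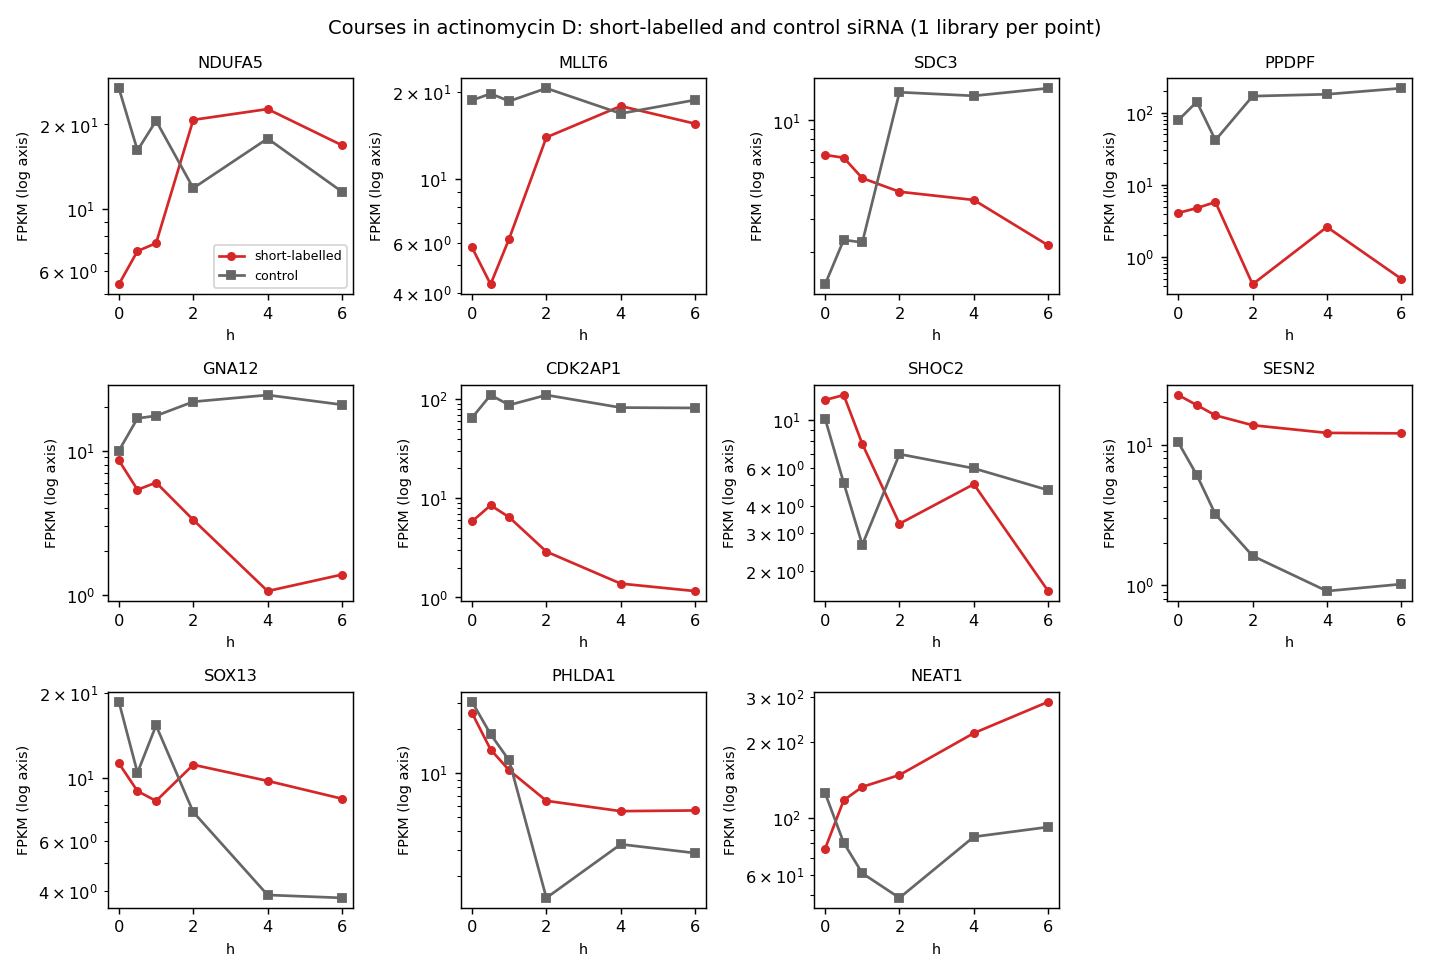
Level in FPKM (y axis, log scale) against hours in actinomycin D (x axis) for 11 genes in the short-labelled (red) and control (grey) series, 1 library per point. The GNA12 curves part after 0 h to 1.38 FPKM in the short-labelled and 20.9 FPKM in the control library of 6 h.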

How the data were processed

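Cytoplasmic RNA of 24 U2OS libraries was sequenced after standard Illumina preparation, per the labels' protocols. Per the submitters' processing notes, TopHat 1.3.3 aligned the reads to hg19. How the values were then estimated is not given in the sources used here. The authors deposited FPKM for each RefSeq transcript. Read totals cannot be had from FPKM, so depth and counting error are unknown.

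FPKM of the 37382 transcripts were summed to 22925 gene symbols; 154 transcripts without a symbol (0.0141% of FPKM) were left out. A mean of 1 FPKM or more over the 24 libraries was reached by 9898 genes. Of these, 464 with a dash in place of a value and 1574 with a 0 next in time to at least 1 FPKM in the same series were left out, since such zeros can be failed estimates, which left 7860. Values were log2(FPKM + 0.1) less the library median of these genes; fold changes on this scale understate those of low genes.

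limma 3.58.1 (R 4.3.3, with a mean-variance trend) was fitted to all 24 libraries as 8 means of series and phase for late minus early, and with terms for the 6 times, the series and their phases for the difference between series; p-values were adjusted by Benjamini-Hochberg over 7860 genes. Time as a factor stands for the pairing of libraries by time, which the labels give. With 1 library per time, late and early libraries are not repeats of one condition. PAN3 was compared by an exact permutation test. Scripts were tested on simulated data. Sites were searched in 3′ UTRs of GENCODE 29 (GRCh38), not the build of the files.

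Genes were named by rule: among called genes at 5 FPKM or more on average, no overlap of late and early values and one sign without any one library, the 12 lowest and 12 highest; likewise 5 each way against the control; up to 4 called members per list by smallest p; PAN3 and PAN2. Results for a few genes are left out. The members, lists and tests were chosen with earlier results of these data known. Alternatives covered pseudocounts, filters, zeros, scaling, the most abundant transcript, the trend, the model and each library left out.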

Additional observations from a re-analysis of the deposited data

Results flagged for a closer look

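Each of these genes had a late minus early difference that was not the same in the short-labelled and the control series by limma's test of the difference itself (adjusted p under 0.05). The short-labelled minus control value was -3.71 log2 units for SDC3, -3.70 for PPDPF, -2.55 for GNA12, -2.08 for CDK2AP1 and -2.01 for SHOC2. It was 2.17 for NDUFA5, 1.63 for SESN2, 1.57 for SOX13, 1.52 for MLLT6 and 1.501 for PHLDA1. All 10 lost the call without the 6 h libraries of all series, without the 0 h libraries of all series and with only the 12 libraries compared, and 7 of the 10 lost it with no replicate block for time. No group had enough libraries to look for single libraries far from the rest.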

How the results depend on the processing

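The count of 2232 genes called late minus early was 5511 with no filter on low values, 3481 by straight lines over hours, 33 with only the 6 short-labelled libraries (3188 at an unadjusted p under 0.05), 425 without the 6 h and 334 without the 0 h libraries of all series, and 304 to 2697 without 1 short-labelled library. The 188 genes that differed from the control were 98 with no filter, 0 without the 6 h libraries of all series (limma; 1062 at an unadjusted p under 0.05), 4 without the 0 h libraries, 15 with no replicate block for time, 5 with only the 12 libraries compared, 696 by slopes per h, and 28 to 437 without 1 library. PAN3 differed by 1.06 to 1.70 FPKM without 1 library. Other settings left each count within 1.5 times. Of the 114 genes named within the series, 106 lost the call with only the 6 libraries, 77 without the library of 6 h, 20 without subtraction of library medians and 30 with quantile normalisation, the 4 with a changed sign included. Sign changed for ALDOA (-0.0838), PSMA4 (-0.0114), SRSF2 (-0.0916) and HIST1H2BK (-0.0165) with quantile normalisation and for TNFRSF10B (-0.0642) with the most abundant transcript per gene; the cause was not tested. Without genes that had a transcript listed at 0 between higher values, an alternative added after the data had been seen, 1831 of 6011 genes were called. The depth is unknown and limits what low values can show.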
